A study of Homo sapiens with 21 samples.

Results

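The genes described here are the zinc finger genes of chromosome 19 that carry a symbol of ZNF and a number. They are all genes of the count files whose Ensembl identifier maps to a protein-coding gene of that kind on GRCh37, and this rule uses no expression value. The rule found 223 members among the 53515 genes of the files, out of 240 such genes in the annotation. A member was called silent in a cell line under 0.2 CPM (its count as a rate per 1000000 counts on genes) and expressed at 2 CPM or more, and it was called switched in a pair when it was silent in one line and expressed in the other.

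RNA sequencing covered 17 established human cancer cell lines in 21 libraries, with 7 parental lines and 10 resistant lines that had been selected from them by exposure to a drug. HepG2, from a liver carcinoma, was the parental line of HepG2S1 and HepG2S3 (sorafenib), and PancVB, a stock of the pancreatic line Panc 03.27, that of PancB1Q and PancB1V (5-fluorouracil). HCC4006P1 and HCC4006P2, stocks of 1 lung adenocarcinoma line, gave HCC4006ER (erlotinib) and HCC4006GR (gefitinib), and the lung line HCC827P gave HCC827GR (gefitinib). The ovarian line UWB1.289 gave U10 and U100 (olaparib), and the ovarian line IGROV-1 gave IGROV-1/CDDP (cisplatin). Each resistant line is 1 derivative, so that a difference from its parental line cannot be told apart from one between subpopulations of that line.

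Most of these genes encode KRAB zinc finger proteins, the largest family of DNA-binding factors in primates. Their tandem zinc fingers recognise DNA, often within a transposable element, and the KRAB domain recruits TRIM28 (KAP1), which in turn brings the histone methyltransferase SETDB1, HP1 proteins and the NuRD complex to repress the bound region. The genes arose by repeated local duplication and therefore lie in clusters on chromosome 19, where many have CpG-rich promoters and carry heterochromatin marks over their bodies.

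Replicate libraries, 2 of each, existed for HepG2, HepG2S3, HCC4006P1 and HCC4006ER. For the other 13 lines there was 1 library, so that 8 of the 10 pairs could not be tested. Libraries held 9851195 to 36639473 counts on genes. In the shallowest library, HepG2S1, the silent limit corresponded to 1.97 counts, so that silence there meant 0 or 1 count, while it corresponded to 7.33 counts in HepG2 replicate 1. A floor of 3 counts was above the limit in HepG2S1, HCC4006P2, UWB1.289, U10 and U100, at 0.220 to 0.305 CPM. HCC4006P1 replicate 1 lacked counts for a stretch of the genome that held none of the 223 members. That stretch took 18.1% of the counts of replicate 2, which raised the CPM of every other gene in replicate 1 by 22.1%.

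The libraries labelled HepG2S1 and HepG2S3 were low in liver markers and less like HepG2 than like PancVB. ALB, which encodes albumin, was at 12183 CPM in HepG2, 0 CPM in HepG2S1 and 9.17 CPM in HepG2S3, and the summed level of 5 liver markers was 25250 CPM, 0 CPM and 22.7 CPM. Over 14285 protein-coding genes the correlation of log2(CPM + 1) with HepG2 was 0.738 and 0.741, and that with PancVB was 0.840 and 0.833. Such closeness to PancVB was not particular to them. It was also the nearest parental line after their own for HCC4006ER (0.857), U10 (0.856), U100 (0.854) and HCC827GR (0.849). Over the 223 members the correlation of HepG2S1 and HepG2S3 was 0.726 and 0.681 with HepG2 and 0.805 and 0.760 with PancVB. The members alone also put PancB1Q and PancB1V closer to IGROV-1 (0.857 and 0.871) than to PancVB (0.798 and 0.829). HCC4006ER had 0.921 with HCC4006P2 and 0.916 with HCC4006P1. Over all these protein-coding genes, PancB1Q, PancB1V and HCC4006ER were closest to their own parental line. HCC4006P1 also lacked a marker of its tissue, with 0.08 CPM of NKX2-1, the lung lineage factor, against 113 CPM in HCC4006P2. Changes in the libraries labelled HepG2S1 and HepG2S3 are therefore mainly described in paragraphs of their own. Totals over the pairs, cluster values and the test of all resistant against all parental lines still include them. The study lists both lines as having undergone full EMT. What the low liver markers owe to that, and whether these lines derive from HepG2, was not tested.

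Most chromosome 19 zinc finger genes were expressed in most lines. Of the 223 members, 107 reached 2 CPM in all 17 lines, 160 were silent in none, and 6 were silent in all. Silence in some lines and expression in others was found for 48 members. The median over members of their median CPM was 7.89, against 8.86 for all protein-coding genes. Per kilobase of exon, the 185 members with a median of at least 2 CPM had a median of 1.89 CPM, against 6.13 CPM for 11326 protein-coding genes chosen the same way. Division by exon length assumes reads from the whole transcript, and a 3′ end kit is also named in the study's methods, without the libraries it served.

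ZNF146, which encodes a short protein built almost wholly of zinc fingers, was the highest member on both scales, with a lowest, median and highest level of 100 CPM, 171 CPM and 280 CPM over the lines and 41.3 CPM per kilobase. Its levels stayed within 3-fold in lines of 4 tissues. ZNF562 (median 71.0 CPM), ZNF507 (70.4 CPM), ZNF317 (48.0 CPM) and ZNF544 (46.2 CPM) followed by CPM, and ranked 15, 9, 5 and 8 per kilobase. None of these 5 was silent in any line. At the other end, ZNF93, which is known to repress LINE-1 retrotransposons, did not exceed 0.102 CPM, and ZNF283 and ZNF888 did not exceed 0.146 CPM and 0.115 CPM. ZNF737 and ZNF536 had no count in any of the 21 libraries. Reads without a unique position, 19.3% to 31.9% of all reads of a library and from any gene or repeat, were not counted. How many came from near-identical zinc finger paralogs was not measured, so that the level of any member with close copies is uncertain.

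Over the 10 pairs, members were switched 55 times, with 38 losses and 17 gains in the resistant line, and 30 of the 223 members (13.5%) switched in at least 1 pair. Losses fell in 3 pairs only under these limits. They were 15 of 159 expressed members (9.43%) in HepG2S1, 17 of 159 (10.7%) in HepG2S3 and 6 of 184 (3.26%) in IGROV-1/CDDP. Over all protein-coding genes, the share lost was 4.22%, 4.62% and 0.48%. The counts moved with the limits, to 5 losses in HepG2S1 at a silent limit of 0.1 CPM, to 12 in IGROV-1/CDDP at one of 0.5 CPM, and to 9 and 10 in HepG2S1 and HepG2S3 at an expressed limit of 5 CPM. Gains were most frequent in the 5-fluorouracil pairs, with 4 of 175 members in PancB1Q and 5 of 182 in PancB1V, which is 2.29% and 2.75% against 0.64% and 0.895% of all protein-coding genes. Without the HepG2 lines 18 switches were left, 6 losses and 12 gains. No member switched between the replicate libraries of any of the 4 lines that had them or between HCC4006P1 and HCC4006P2, whereas 1 to 16 members, with a median of 7, switched in 20 comparisons between unrelated parental lines. These comparisons and the 13.5% were taken for the members only. Whether other genes switch as often between such lines was not measured.

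**Figure D1:**
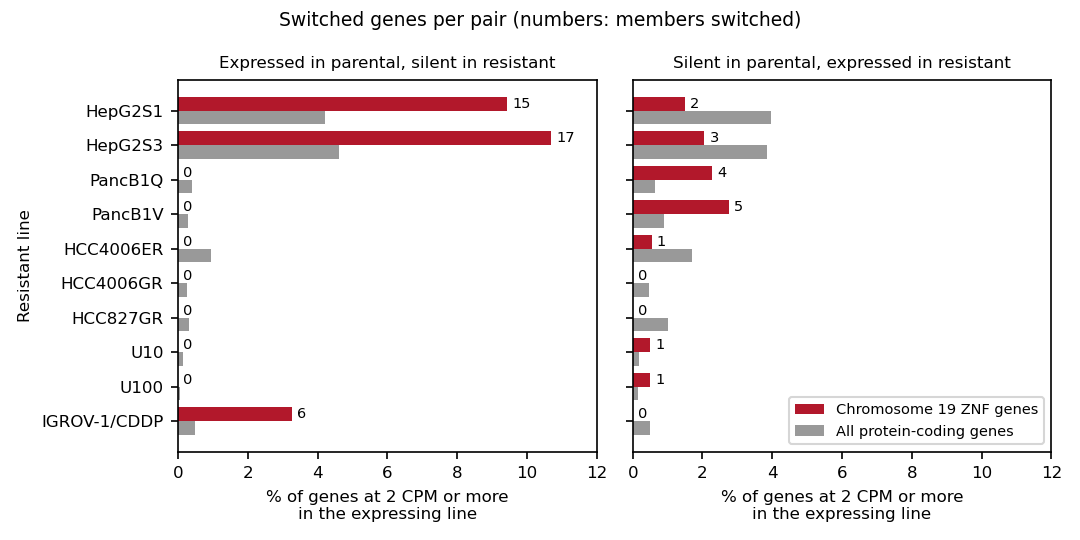
Share of genes switched in each pair, in percent of the genes at 2 CPM or more in the expressing line (x axis), for the chromosome 19 zinc finger genes (red) and all protein-coding genes (grey), with 1 pair per row and no error bars since most lines had 1 library. Red bars exceed grey bars for losses in HepG2S1, HepG2S3 and IGROV-1/CDDP and for gains in PancB1Q, PancB1V, U10 and U100, the last 2 with 1 member each.

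Since the share that can be called depends on the level, the shares were also taken over genes at 2 to 20 CPM in the expressing line, a range chosen after the data had been seen. In IGROV-1/CDDP the members lost were then 5.26% against 1.31% of all protein-coding genes in that range. In HepG2S1 and HepG2S3 they were 10.6% against 7.35% and 12.1% against 8.90%. In PancB1Q and PancB1V the gains were 2.4% against 1.76% and 2.26% against 2.30%, so that the Panc gains were near the share of other genes of like level. A few members lay next to the limits. ZNF649 at 0.198 CPM in IGROV-1/CDDP counted as silent, whereas ZNF556, at 16.97 CPM in HepG2 and 0.203 CPM in HepG2S1, and ZNF880, at 15.3 CPM in HCC4006P1 and 0.230 CPM in HCC4006ER, did not.

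In the cisplatin-resistant IGROV-1/CDDP line, zinc finger genes of chromosome 19 were lower than in IGROV-1. Among the 185 members expressed in either line, 146 were lower and 39 higher, with a median log2 fold change of -0.35 against -0.03 for all protein-coding genes. A decrease of at least 2-fold was found for 41 members (22.2%), against 7.57% of all protein-coding genes, and an increase of that size for 0, against 5.93%. ZNF genes on other chromosomes had a median of -0.21, and the other genes of chromosome 19 one of 0.08. Both lines had 1 library, so these values have no replicate check.

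The 6 members that went from expressed to silent in IGROV-1/CDDP were ZNF43, ZNF577, ZNF613, ZNF649, ZNF836 and ZNF491. ZNF43 was at 10.4 CPM in IGROV-1 (285 counts) and had 0 counts in IGROV-1/CDDP, which is at least 87.4-fold lower against a floor of 3 counts. ZNF577 went from 9.93 CPM to 0.119 CPM, an 83.7-fold difference with a 95% counting interval of 28.3 to 408. ZNF613 (8.70 CPM) and ZNF836 (4.55 CPM) also had 0 counts, and were at least 73.3-fold and 38.3-fold lower. Of these genes, ZNF43 and ZNF613 had been at 1.65 CPM or more in every line of the series but HepG2S1 and IGROV-1/CDDP, and ZNF836 at 1.32 CPM or more in every line but IGROV-1/CDDP. These bounds describe counting error and no other, as reads copied by PCR do not count molecules. In bulk RNA a gene that is off in some cells cannot be told apart from one that is low in all of them.

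Of the 6 losses, 4 lay in 1 cluster, at chr19:52074536-54083523, and ZNF577, ZNF649 and ZNF613 followed each other without another expressed member between them over 144 kb. All 32 expressed members of that cluster were lower in IGROV-1/CDDP, 20 of them by at least 2-fold, with a median log2 fold change of -1.60. The decrease was uneven. Among members named after their values were seen, ZNF813 went from 29.0 CPM to 0.949 CPM, ZNF83 from 40.6 CPM to 3.68 CPM, and ZNF808, a gene required for human pancreas development, from 24.5 CPM to 2.69 CPM. ZNF766, in contrast, had 29.5 CPM and 28.9 CPM, and its neighbour ZNF480 had 72.9 CPM and 42.2 CPM. Of the 3 expressed genes in the cluster that are not members, PPP2R1A, which encodes a scaffold subunit of protein phosphatase 2A, had 247 CPM and 234 CPM. SPACA6 had 2.80 CPM and 1.03 CPM, and the read-through gene ZNF816-ZNF321P had 9.90 CPM and 2.61 CPM.

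**Figure D2:**
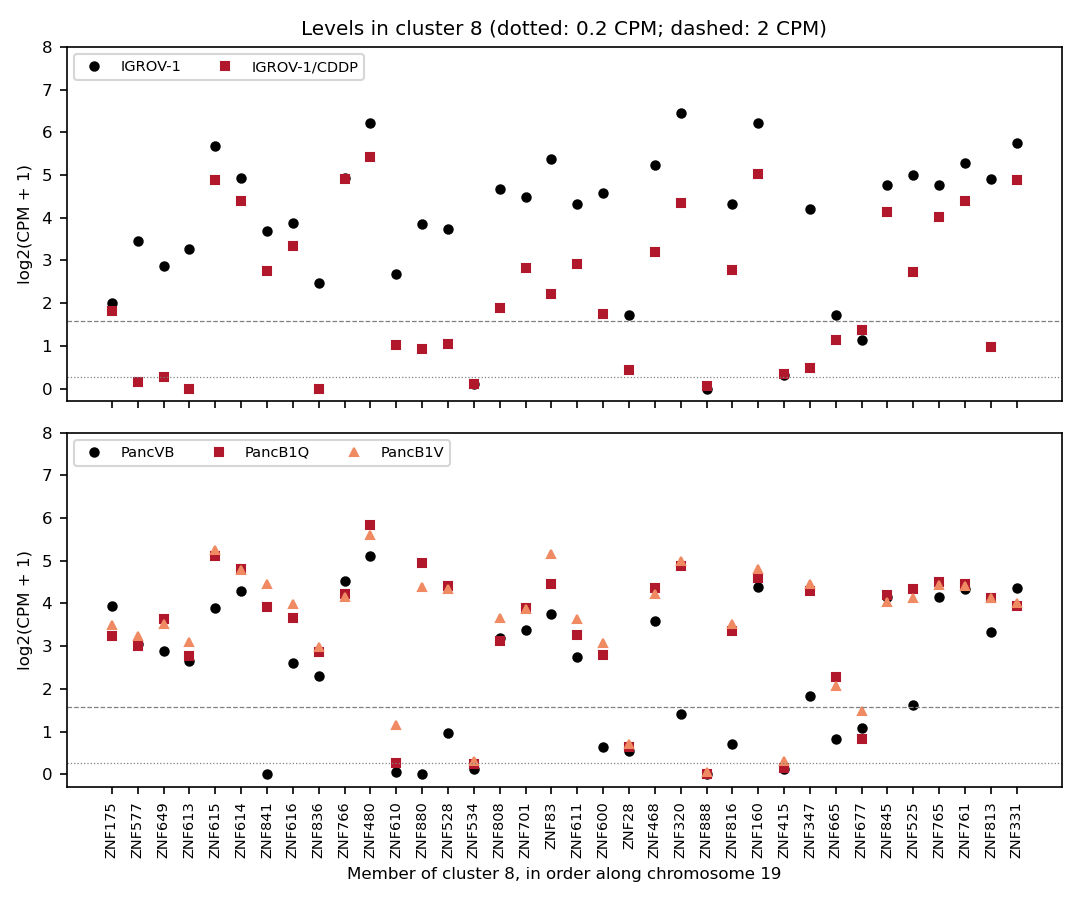
Levels of the 36 members of the cluster that holds ZNF649 and ZNF836 (cluster 8) in log2(CPM + 1) (y axis), in their order along the chromosome (x axis), for IGROV-1 and IGROV-1/CDDP (top) and PancVB, PancB1Q and PancB1V (bottom), with 1 point per line. At the top the red squares of all 32 expressed members lie under the black circles, for 4 of them at or under the dotted 0.2 CPM line, and at the bottom most coloured points lie over the black circles.

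The 200 bases before the canonical transcript start of a gene lost in HepG2S1, HepG2S3 and IGROV-1/CDDP (ZNF649) and of one lost in IGROV-1/CDDP alone (ZNF836) are shown from GRCh37 to let the promoters be compared, with CpG dinucleotides in capitals. ZNF649 lies on the minus strand, and its window is chr19:52408271-52408470. It held 12 CpG, and 63.4% of 18628 protein-coding promoters held at least as many in the same window. The window of ZNF836, also on the minus strand, is chr19:52674875-52675074, with 9 CpG (70.7%).
ZNF649: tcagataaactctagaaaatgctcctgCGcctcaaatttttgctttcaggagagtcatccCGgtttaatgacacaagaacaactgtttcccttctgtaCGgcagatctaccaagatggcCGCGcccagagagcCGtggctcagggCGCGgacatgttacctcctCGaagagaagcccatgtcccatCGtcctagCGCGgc
ZNF836: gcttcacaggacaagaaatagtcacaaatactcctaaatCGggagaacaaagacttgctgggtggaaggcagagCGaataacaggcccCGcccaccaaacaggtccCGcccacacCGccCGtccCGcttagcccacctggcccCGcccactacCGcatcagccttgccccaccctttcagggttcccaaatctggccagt

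In the 5-fluorouracil-resistant PancB1Q and PancB1V lines, zinc finger genes were higher than in PancVB. Of 183 and 186 members expressed in either line of a pair, 116 and 125 were higher, with a median log2 fold change of 0.30 and 0.33 against -0.07 and 0.00 for all protein-coding genes. An increase of at least 2-fold was found for 39 members (21.3%) in PancB1Q and 44 (23.7%) in PancB1V, against 6.17% and 8.79% of all protein-coding genes, and a decrease of that size for 7 and 1, against 9.6% and 7.76%. The other genes of chromosome 19 had a median of -0.57 and -0.27, and ZNF genes on other chromosomes one of 0.00 and 0.14. Both comparisons share the PancVB library, so they are not independent.

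No member was lost, 0 of 162 expressed members in either line, against 0.41% and 0.294% of all protein-coding genes. ZNF257, ZNF841, ZNF880 and ZNF583 were gained in both lines. ZNF880 had 0 counts in PancVB, 30.1 CPM in PancB1Q and 20.1 CPM in PancB1V, at least 218-fold and 145-fold higher. ZNF841 had 0 counts, 14.1 CPM and 20.9 CPM, at least 102-fold and 151-fold higher. PancVB was the only line of the 17 in which ZNF841 was silent, while ZNF880 was also silent in HepG2 and the lines labelled HepG2S1 and HepG2S3. ZNF257 had 0 counts, 9.35 CPM and 7.93 CPM, and ZNF583 had 0.05 CPM (1 count), 13.7 CPM and 7.21 CPM. The ratios of ZNF583 were 298, with a 95% counting interval of 53.2 to 11806, and 157, with one of 27.7 to 6218. ZNF582, whose promoter is known to be methylated in cervical and other carcinomas, was gained in PancB1V, with 0.05 CPM in PancVB and 2.21 CPM in PancB1V, and was at 1.02 CPM in PancB1Q.

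SETDB1, the histone methyltransferase that acts with KRAB zinc finger proteins, was lower in both resistant lines. It was at 15.2 CPM in PancVB, 1.12 CPM in PancB1Q and 1.57 CPM in PancB1V, a log2 fold change of -2.94 and -2.66, and between 29.5 CPM and 65.7 CPM in the lines of the other families. ZNF274, a KRAB zinc finger protein known to bring SETDB1 to the ends of ZNF genes and named here for that role after its values were seen, was at 19.2 CPM, 44.4 CPM and 51.2 CPM. The part of either gene in the gains was not tested.

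The promoter windows of the gained genes ZNF880 (plus strand, chr19:52872976-52873175) and ZNF841 (minus strand, chr19:52599019-52599218), and of ZNF583 (plus strand, chr19:56915501-56915700), which was gained here and lost in the lines labelled HepG2S1 and HepG2S3, held 14, 13 and 17 CpG, again in capitals. The same window held at least as many in 57.9%, 60.7% and 47.6% of protein-coding promoters.
ZNF880: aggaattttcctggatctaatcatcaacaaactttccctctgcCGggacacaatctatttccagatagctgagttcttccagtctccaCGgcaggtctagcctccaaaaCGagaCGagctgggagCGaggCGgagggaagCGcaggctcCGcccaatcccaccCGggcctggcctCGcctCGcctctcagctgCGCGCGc
ZNF841: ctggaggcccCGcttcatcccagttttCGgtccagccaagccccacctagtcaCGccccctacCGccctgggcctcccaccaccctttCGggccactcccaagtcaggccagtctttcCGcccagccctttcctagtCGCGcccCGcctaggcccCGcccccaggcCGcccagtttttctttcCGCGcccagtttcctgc
ZNF583: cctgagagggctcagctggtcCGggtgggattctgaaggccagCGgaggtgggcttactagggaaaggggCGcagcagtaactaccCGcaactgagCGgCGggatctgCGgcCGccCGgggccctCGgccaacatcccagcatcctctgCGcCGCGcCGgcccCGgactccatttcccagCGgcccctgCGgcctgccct

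In the library labelled HepG2S1 and the 2 labelled HepG2S3, 15 members were lost in both lines, and ZNF433 and ZNF845 in HepG2S3 alone. The highest of them in HepG2 were ZNF549, ZNF563, ZNF551, ZNF649, ZNF845, ZNF71 and ZNF69. ZNF549 had 9.17 CPM and 12.5 CPM in the HepG2 libraries, 0.102 CPM in HepG2S1, and 0.0312 CPM and 0.0653 CPM in the HepG2S3 libraries. ZNF563 had 11.52 CPM and 9.76 CPM, then 0.102 CPM, and 0.0312 CPM and 0.131 CPM. In both genes the groups were far apart in every library. Gains were fewer, 2 of 134 expressed members (1.49%) in HepG2S1 and 3 of 146 (2.05%) in HepG2S3, against 3.97% and 3.85% of all protein-coding genes. They were ZNF302 and ZNF208 in both lines and ZNF676 in HepG2S3. ZNF302 had 0.136 CPM and 0.0287 CPM in HepG2, 25.8 CPM in HepG2S1, and 23.3 CPM and 22.3 CPM in HepG2S3. HepG2 was the only line in which ZNF302 was silent, the other 16 lying between 22.8 CPM and 73.3 CPM.

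With 2 libraries a side, HepG2S3 could be compared with HepG2 by the quasi-likelihood test of edgeR, at a Benjamini-Hochberg adjusted p under 0.05 over all 16929 genes. Of 200 members tested, 41 were higher (20.5%) and 70 lower (35.0%) in HepG2S3, against 31.4% and 32.1% of all genes, and 89 did not pass. The lower members with the largest change were ZNF577, ZNF583 and ZNF790, each with 0 counts in both HepG2S3 libraries and 3.11 CPM to 4.59 CPM in those of HepG2. They were at least 82.4-fold, 81.5-fold and 66.6-fold lower against 3 counts over the group, with adjusted p values of 6.64e-04, 5.52e-04 and 4.94e-04. The higher members with the largest change were ZNF98, ZNF302 and ZNF729. ZNF98 had 0 CPM in both HepG2 libraries and 1.69 CPM and 1.501 CPM in those of HepG2S3 (adjusted p = 1.05e-03). Without either HepG2S3 library 69 members were called, instead of 111, while the share called over all genes went from 63.5% to 41.5% and 41.2%. The median CPM fold change of all members changed its sign with the scaling, from 0.16 to -0.19 on the log2 scale with TMM-scaled library sizes, and the share of members higher in HepG2S3 fell from 56.3% to 38.6% (from 49.7% to 30.2% in HepG2S1).

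In the erlotinib-resistant HCC4006ER line, more zinc finger genes were called higher than lower against HCC4006P1, although most did not pass the test. Of 201 members tested with edgeR's quasi-likelihood test, 79 were higher (39.3%) and 8 lower (4%), against 24.1% and 24.9% of all 12791 genes, and 114 did not pass. The median log2 fold change in the fit was 0.48 for the members and 0.01 for all genes. From mean CPM the median of the members was 0.35, but it ran from 0.06 to 0.74 over the 4 pairings of a parental with a resistant library. ZNF genes on other chromosomes also had a median of 0.35. That set was not cleared of genes of the stretch lacking counts in HCC4006P1 replicate 1, so the 2 medians are not directly comparable. In mean CPM 26 members (13.7%) were at least 2-fold higher and 6 (3.16%) lower, against 17.8% and 11.5% of all protein-coding genes. The shares of all protein-coding genes in this pair include genes of the stretch lacking counts, in which no member lies. The HCC4006P1 mean of those genes takes in a library without counts, which raises their fold change. These shares are therefore no like comparison. ZNF676 rose most, from 0.0534 CPM and 0 CPM to 2.53 CPM and 2.26 CPM, with a log2 fold change of 6.25 ± 0.61 (SE) and an adjusted p of 3.65e-04 (Benjamini-Hochberg). In summed counts the ratio was 91.5, with a 95% counting interval of 16.04 to 3654, as HCC4006P1 had 1 count. It was also the only member that switched in this pair, 1 gain of 185 (0.541%, against 1.7% of all protein-coding genes), while 0 of 176 were lost (against 0.949%). ZNF546 rose from 1.496 CPM and 0.308 CPM to 6.68 CPM and 5.08 CPM, and ZNF491 from 0.267 CPM and 0.205 CPM to 1.72 CPM and 1.34 CPM, with adjusted p values of 3.68e-03 and 2.13e-03 in the same edgeR test. The call of ZNF546 was lost, with an edgeR adjusted p of 0.0946, when the genes of the stretch were kept.

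The lower members with the largest change in HCC4006ER were ZNF880, ZNF528 and ZNF320, all of the cluster at chr19:52074536-54083523. ZNF880 went from 18.1 CPM and 12.6 CPM to 0.202 CPM and 0.257 CPM, a log2 fold change of -5.96 ± 0.28 (SE, edgeR adjusted p = 2.2e-05). ZNF528 went from 11.3 CPM and 6.77 CPM to 0.455 CPM and 0.719 CPM (-3.86 ± 0.32), and ZNF320 from 16.2 CPM and 8.77 CPM to 1.77 CPM and 1.75 CPM (-2.74 ± 0.26), and neither gene's groups overlapped. Of the 8 lower members 6 lay there. In mean CPM the 30 expressed members of that cluster had a median log2 fold change of 0.10, with 17 higher and 13 lower. ZNF468 and ZNF816, named after their values were seen, lie in the same cluster and were lower by 1.37 and 1.18 on the log2 scale. The number of members called depended on single libraries. It was 139 without HCC4006P1 replicate 1 (68.5% of the members tested, against 63.6% of all genes), 49 and 55 without HCC4006ER replicate 1 or 2 (24.3% and 27.1%, against 30.8% and 31.6%), and 33 when the genes of the stretch lacking counts were kept in the fit. In that last fit 13.9% of the members were called higher and 2.49% lower, against 10.5% and 10.9% of all genes.

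The remaining pairs had few switches and moderate shifts. HCC4006GR and HCC827GR had none, out of 184 and 185 members expressed in the parental line, against 0.242% and 0.307% of all protein-coding genes lost and 0.48% and 1.02% gained. In HCC4006GR 161 of 184 members were lower than in HCC4006P2, with a median log2 fold change of -0.34 against -0.09 for all protein-coding genes, with 10 by at least 2-fold (5.43%, against 8.12%) and 0 higher by that much (against 8.22%). HCC827GR had a median of -0.15 against 0.03, with 3 members at least 2-fold higher and 12 lower (6.35%), against 11.1% and 8.33%. The other genes of chromosome 19 had a median of -0.22 in HCC4006GR and 0.26 in HCC827GR. For ZNF genes on other chromosomes it was -0.01 and 0.01. In U10 162 members were higher and 37 lower than in UWB1.289, with a median of 0.37 against -0.003. In U100 155 were higher and 44 lower, with a median of 0.26 against 0.06. The other genes of chromosome 19 had a median of 0.25 in U10 and -0.02 in U100. For ZNF genes on other chromosomes it was 0.05 in U10 and 0.21 in U100. In U10 and U100 at least 2-fold increases were found for 12 and 5 members (6.03% and 2.51%), against 6.98% and 7.02% of all protein-coding genes. Such decreases were found for 1 in each line, against 5.01% and 1.83%. Neither line lost a member (against 0.137% and 0.0427%). U10 gained ZNF175, from 0.0860 CPM to 2.15 CPM (22 counts), which stayed at 0.0763 CPM in U100. U100 gained ZNF541, a factor of male germ cells, with 0 counts in UWB1.289, 2.59 CPM in U100 (34 counts) and 0.878 CPM in U10. Each is 1 of 197 expressed members (0.508%), against 0.188% and 0.158% of all protein-coding genes gained. None of these pairs had replicate libraries.

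Of the 30 switched members, 4 switched in more than 1 family of lines. For each of the 4, 1 of these families was that of HepG2, with the resistant libraries that were less like HepG2 than like PancVB. ZNF583 switched in 4 pairs, in opposite directions. It had 4.37 CPM and 3.41 CPM in HepG2, 0.102 CPM in HepG2S1 and 0 CPM in both HepG2S3 libraries, whereas it went from 0.05 CPM in PancVB to 13.7 CPM and 7.21 CPM. ZNF577 and ZNF649, neighbours whose gene models overlap, were lost in HepG2S1, HepG2S3 and IGROV-1/CDDP. ZNF649, which carries a KRAB domain and is known as a transcriptional repressor, had 9.63 CPM and 7.06 CPM in HepG2, 0.102 CPM in HepG2S1, 0.0937 CPM and 0.0653 CPM in HepG2S3, and 6.26 CPM and 0.198 CPM in IGROV-1 and IGROV-1/CDDP. ZNF676 was gained in HepG2S3 and HCC4006ER. It was absent or low in most lines, and reached 4.47 CPM, 9.56 CPM and 8.54 CPM in UWB1.289, U10 and U100.

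**Figure D3:**
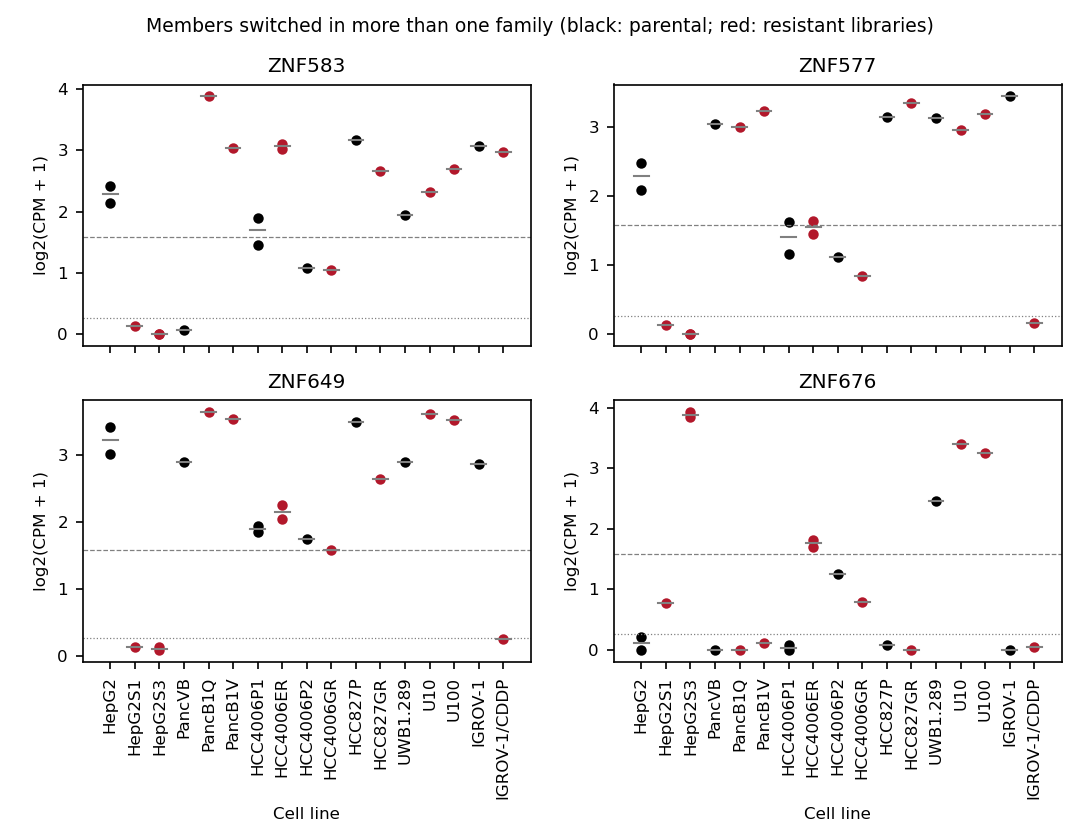
Levels of the 4 members switched in more than 1 family in log2(CPM + 1) (y axis) in each cell line (x axis), with 1 point per library, a grey bar at the mean, and lines at 0.2 CPM (dotted) and 2 CPM (dashed). ZNF577 and ZNF649 lie under the dotted line in the same 3 lines, HepG2S1, HepG2S3 and IGROV-1/CDDP. For each of the 4 members, 1 of the families is that of HepG2.

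**Figure D4:**
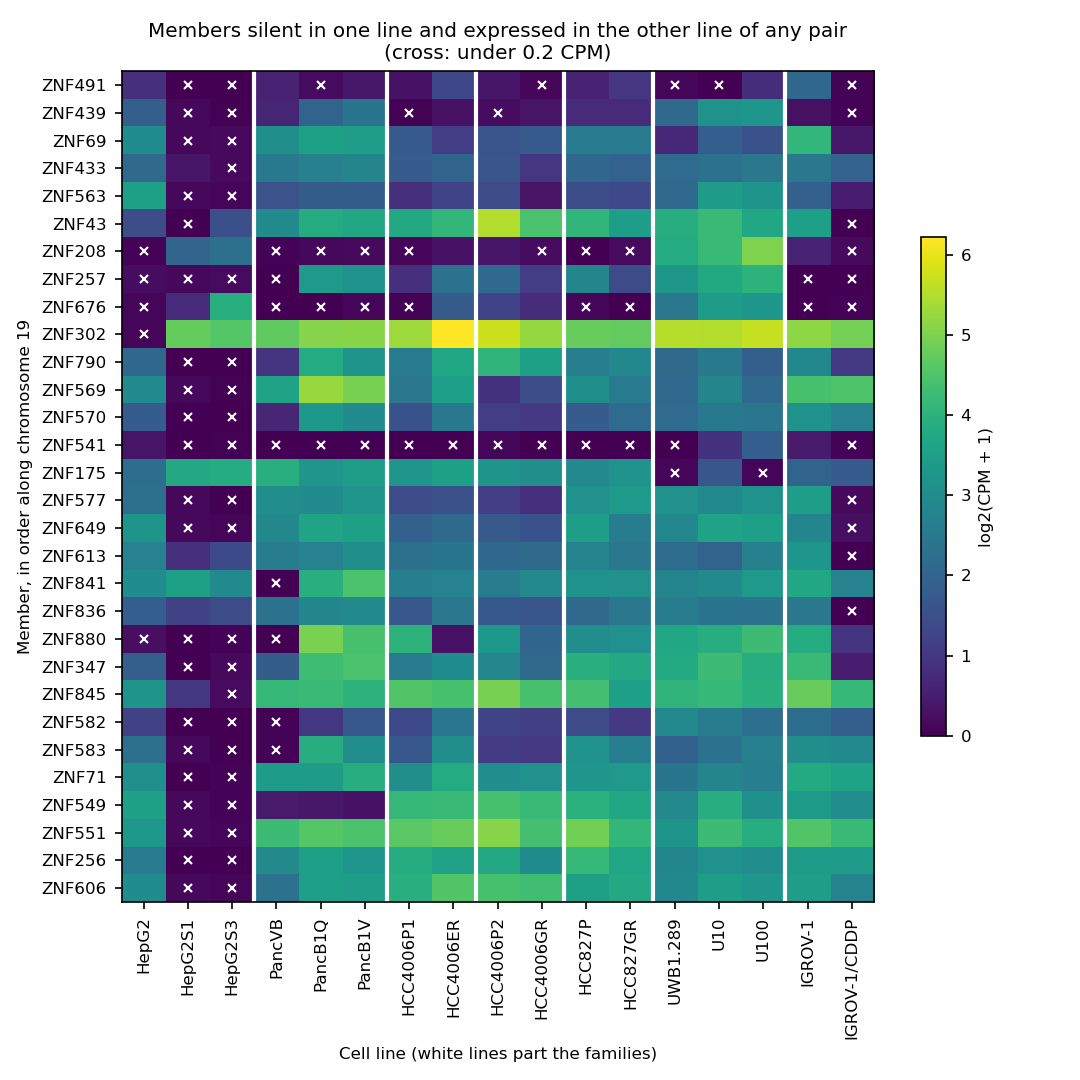
Levels of the 30 switched members (rows, in order along chromosome 19) in the 17 lines (columns, mean of the libraries), in log2(CPM + 1), with a cross where the level is under 0.2 CPM. Columns HepG2S1 and HepG2S3 have crosses in most rows, PancVB has crosses at ZNF841, ZNF880, ZNF582 and ZNF583 among others, and IGROV-1/CDDP at ZNF577, ZNF649, ZNF613 and ZNF836 among others.

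Joined over gaps of up to 500 kb, 211 members fell into 10 clusters of 5 to 40 members, and 12 lay apart. Gaps of 250 kb and 1 Mb gave 13 and 9 clusters. Switched members came from 7 clusters, plus 1 unclustered member, with 9 of 36 members in the cluster at chr19:52074536-54083523, 5 of 23 in that at chr19:11594242-12750912 and none in the clusters at chr19:2819866-2944969, chr19:8574562-9903856 and chr19:44029649-45004576. Among expressed members, the 3 neighbours lost in IGROV-1/CDDP were the longest run of adjacent switches in any pair.

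The medians of whole clusters varied between pairs. The cluster at chr19:19779605-24312770, whose 33 members include many primate-specific genes, had a median log2 fold change of 1.32 in HepG2S3 but 0.31 in HepG2S1, 0.81 and 0.72 in PancB1Q and PancB1V, 0.63 in HCC4006ER, and 0.37 and 0.31 in U10 and U100. It had -1.02 in IGROV-1/CDDP, -0.82 in HCC827GR, where all 26 expressed members were lower, and -0.76 in HCC4006GR, where all 25 were. No other protein-coding gene of the files lies within this cluster. The cluster at chr19:36673178-38307940 had a median of 0.93 and 0.90 in PancB1Q and PancB1V, with 10 and 9 of 21 members at least 2-fold higher. The 3 expressed genes between them that are not members had a median of 1.60 and 1.46. The 40 members at chr19:57702868-58992597 moved most in U10, with a median of 0.72 and 36 of 37 expressed members higher. Neighbouring non-member genes there had a median of 0.49.

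**Figure D5:**
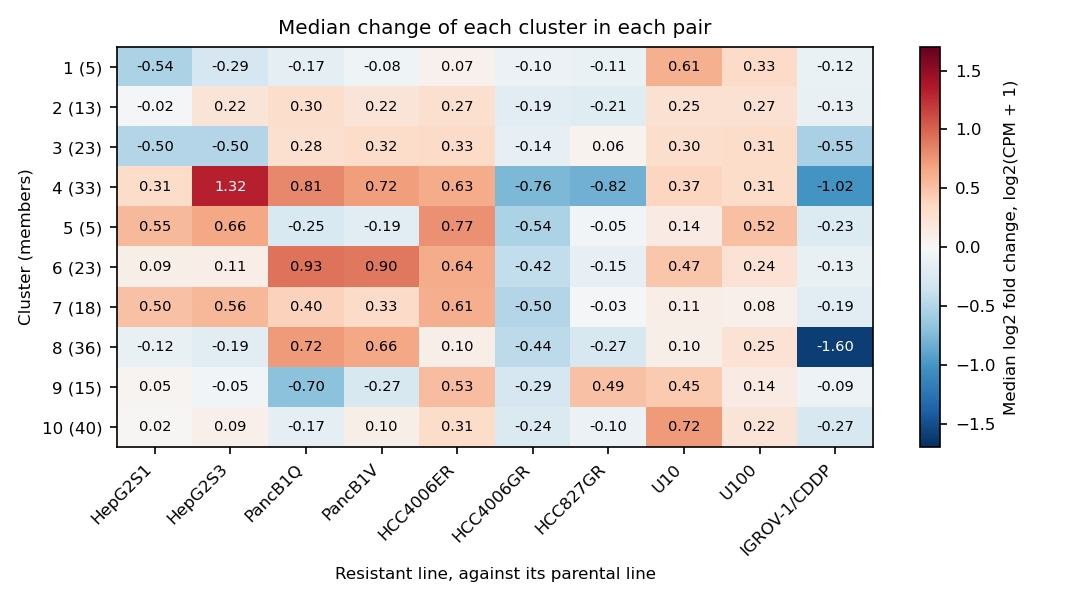
Median log2 fold change on log2(CPM + 1) of the expressed members of each of the 10 clusters (rows, numbered along the chromosome, with their number of members) in each resistant line against its parental line (columns). The strongest values are 1.32 for cluster 4 in HepG2S3 and -1.60 for cluster 8 in IGROV-1/CDDP.

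No change shared by the resistant lines as a group was detected. With counts summed to 7 resistant and 7 parental profiles and the parental line as a block, edgeR's quasi-likelihood test called 0 of 212 members and 0 of 15500 genes. This fit cannot show that no change was shared, as its design recovered only 120 of 200 genes changed 4-fold in simulated counts. At an unadjusted p under 0.05 it gave 0 members and 728 genes, and DESeq2 called 0 members and 94 genes, with 2 members at an unadjusted p under 0.05. The member with the largest fitted rise, ZNF676, had a log2 fold change of 2.55 ± 1.43 (SE, edgeR adjusted p = 0.991).

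Corepressors that KRAB zinc finger proteins act through were described from a list of 28 genes, of which 27 were matched and UHRF1 was not analysed here. TRIM28, the scaffold that binds the KRAB domain, was between 248 CPM and 546 CPM in every line. In HepG2S3 against HepG2, edgeR called 13 of the 27 higher and 3 lower, again against 31.4% and 32.1% of all genes. CHD3, a NuRD subunit, rose by 3.38 ± 0.14 on the log2 scale (SE, adjusted p = 5.5e-05), CBX5, which encodes HP1-alpha, by 3.18 ± 0.18 and the H3K9 methyltransferase SUV39H1 by 2.95 ± 0.58, while the DNA methyltransferase DNMT3A fell by 2.76 ± 0.30. TASOR, a subunit of the HUSH silencing complex, and CBX1, another HP1 gene, rose by 1.48 and 1.33. In HCC4006ER 3 of 24 were called higher and 3 lower, 12.5% each, against 24.1% and 24.9% of all genes. In PancB1Q and PancB1V SETDB1 was the only gene of the list at least 2-fold lower, and 2 and 1 genes were at least 2-fold higher. In IGROV-1/CDDP, where the cluster of ZNF649 was low, SETDB1 had 44.6 CPM against 42.1 CPM in IGROV-1. The 3 listed genes that differed by at least 2-fold there were CBX1, with 216 CPM against 81.9 CPM, the chromatin remodeller ATRX, with 140 CPM against 297 CPM, and DNMT3A, with 12.9 CPM against 28.3 CPM.

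Promoters of the members, from 250 bases before to 50 after the canonical start on GRCh37, held a median of 20 CpG (quartiles 15 and 26), against 24 (10 and 33) for all protein-coding genes. The 17 members lost in HepG2S1 or HepG2S3 had a median of 25, those expressed in HepG2 22, and the 22 members silent in 6 or more lines 15.5. These medians describe few genes and were not tested.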

How the data were processed

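RNA was measured in 21 libraries of 17 cell lines. Per the labels, poly(A) RNA of every library was prepared with a stranded kit. The study's methods name this or a 3′ end kit, and which library used the latter is not given in the sources used here. Reads were mapped to hg19 with Bowtie and TopHat and counted with HTSeq. The strand setting of the counting is not given in the sources used here. The authors deposited whole-number counts per Ensembl gene, without normalization.

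From these counts, CPM were computed from the total on genes and the libraries of a line were averaged. Log2 fold changes used a pseudocount of 1 CPM, which understates changes of low genes. Of 53515 genes, 45100 (84.3%) matched the GENCODE annotation on GRCh37, from which positions, exons and promoters were read. The gene family and the lists were chosen for description with earlier results of these data known, although the rule for members uses no expression value. Named members are those switched per pair (at most 6 per direction), the 5 highest, the most often switched, the first 3 in each direction of each edgeR test and members silent throughout. Members named by another reason are said to be so.

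Tests used edgeR 4.0.16 (quasi-likelihood, TMM, filterByExpr, Benjamini-Hochberg over all genes, threshold 0.05) in R 4.3.3. The stretch lacking counts in HCC4006P1 replicate 1 was left out of the HCC4006 and profile fits. Nothing says that replicate libraries came from separate cultures, so p-values measure the spread between libraries, which may be technical. Intervals are 95% exact binomial ones. On simulated counts with 200 genes changed 4-fold, 180, 192 and 120 were recovered in the HepG2S3, HCC4006ER and profile designs. Apart from those genes, the simulated lines did not differ, and far fewer genes changed than were called in the replicated pairs. Recovery in the data may therefore differ. Alternatives used DESeq2 1.42.0, other limits, scalings and filters, the replicate number as a block and each replicate left out.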

Additional observations from a re-analysis of the deposited data

Results flagged for a closer look

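ZNF583 switched in opposite directions in separate families, on log2(CPM + 1) by -2.15 in HepG2S1 and -2.29 in HepG2S3 and by 3.82 in PancB1Q and 2.97 in PancB1V. This difference was not tested, since the Panc lines have 1 library each.

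Of 47 members called in both replicated pairs with edgeR's quasi-likelihood test, 24 were called in opposite directions. The same share was not taken over all genes, so it is not known whether this is particular to the members. The difference between the pairs was tested in 1 edgeR fit over the 8 libraries (Benjamini-Hochberg adjusted p under 0.05), which called 109 of 209 members and 55.9% of all genes. Of the members named in the report, the log2 fold change in HepG2S3 minus that in HCC4006ER was 8.23 ± 0.37 (SE, adjusted p = 4.48e-07) for ZNF320, which rose by 5.46 in HepG2S3 and fell by 2.74 in HCC4006ER. As these libraries also gave the opposite calls, the fit is no independent evidence of them. It was -10.35 for ZNF491, -11.67 for ZNF583 and -11.03 for ZNF790. These 3 genes had 0 counts in HepG2S3, so that the sizes depend on the prior count of the fit. The libraries labelled HepG2S3 were less like HepG2 than like PancVB, and what the difference owes to that was not tested.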

How the results depend on the processing

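The total of 55 switches was 34 with an expressed limit of 5 CPM and 18 without the HepG2, HepG2S1 and HepG2S3 libraries (chosen after seeing the data), and 39 to 70 under the other limits and scalings. It was 55 to 58 without any 1 replicate library. Leaving out 1 replicate gave 69 to 144 members called in HepG2S3 and 49 to 139 in HCC4006ER, where a lone library is assumed to vary like the other group, and keeping all genes gave 33 in HCC4006ER. ZNF546 in HCC4006ER then had an adjusted p of 0.0946 (edgeR). In every fit without 1 replicate, the share of all genes called rose or fell together with that of the members. The moves of these counts are therefore not particular to the members. The median log2 fold change of the members turned from 0.16 to -0.19 in HepG2S3 with TMM-scaled library sizes, and from -0.02 to 0.022 in HepG2S1 with totals outside the stretch lacking counts, a change near 0. TMM moved the median of all protein-coding genes from 0.22 to -0.21 in HepG2S1, from 0.30 to -0.11 in HepG2S3 and from -0.07 to 0.14 in PancB1Q. In HCC4006ER totals outside the stretch moved the members' median from 0.35 to 0.50. The causes of the other changes were not tested. With the replicate number as a replicate block, 102 members were called in HepG2S3 (51%, against 62.4% of all genes) and 122 in HCC4006ER (60.7%, against 60.9%). The numbering follows an A or B in the cell line label, whereas the titles number both HepG2 libraries alike and both HepG2S3 libraries alike, so the pairing is uncertain. Same-numbered libraries deviated together with a correlation of 0.0222 and 0.385, and the numbers share no stated batch. Of the results and alternatives counted here, 35 of 43 for the main counts kept within 1.5 times. These include counts of 0 that stayed at 0, for the profile fits and the replicate libraries. In the shallowest libraries silence rests on 0 to 2 counts.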
